A study of Arabidopsis thaliana with 12 samples.

Results

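The plastid genome of Arabidopsis thaliana encodes a set of subunits of the chloroplast NADH dehydrogenase-like (NDH) complex, and the report covers the 10 of them that the arrays measured with a probe set of their own: ndhA, ndhC, ndhD, ndhE, ndhF, ndhG, ndhH, ndhI, ndhJ and ndhK. They were chosen by name alone, as the probe sets whose single annotated symbol is ndh followed by 1 capital letter, and are 10 of 22746 probe sets tested and of 69 single-gene probe sets of the plastid genome. The probe set annotated to both plastid copies of ndhB falls outside that rule and was not analysed here. Levels were measured in whole seedlings of 4 genotypes, with 3 biological replicates each: the double mutant sco3phyb, the single mutants phyb and sco3, and Col-0, which the labels call the control. All were 4 days old and had been grown on agar with Murashige and Skoog medium at 21 °C in days of 16 h light and 8 h dark. Phytochrome B, the product of PHYB, senses red and far-red light, and loss of SCO3 is known to disturb the chloroplasts of cotyledons. The title of the series frames the question as how these pathways act on each other in plant development and chloroplast biogenesis. Neither the alleles nor the number of seedlings behind each array could be stated from the labels. As the p-values compare replicates called biological by their titles, they measure the spread between those samples.

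The NDH complex sits in the thylakoid membrane, binds photosystem I and passes electrons from ferredoxin to plastoquinone. It takes part in cyclic electron flow around photosystem I and in chlororespiration. Its stromal arm holds the iron-sulphur clusters that carry the electrons, and its membrane arm moves protons. The plastid-encoded subunits are joined by many subunits and assembly factors made in the nucleus, and several ndh transcripts are edited by nuclear-encoded pentatricopeptide repeat (PPR) proteins. In flowering plants most of these genes are co-transcribed. One unit runs from ndhC through ndhK to ndhJ, another from ndhH through ndhA, ndhI, ndhG, ndhE and psaC to ndhD, and ndhF is transcribed on its own. The genes of each unit are direct neighbours in the RefSeq annotation of TAIR10.1.

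The arrays carry controls that bear on every comparison with a phyb mutation. Bacterial transcripts added before hybridisation, which contain no plant RNA, differed with the PHYB genotype. The signal of bioC stood above that of bioB by 2.14 to 2.27 on the log2 scale in sco3phyb and by 2.17 to 2.26 in phyb, against 1.20 to 1.36 in sco3 and 1.17 to 1.41 in Col-0. The probe set for cytosolic 25S ribosomal RNA, which like most plastid RNA is not generally polyadenylated, averaged 10.07 ± 0.15 in sco3phyb, 10.49 ± 0.13 in phyb, 11.32 ± 0.02 in sco3 and 11.27 ± 0.25 in Col-0 (log2 signal, SD, n = 3). In both measures the 6 arrays with the phyb mutation did not overlap the 6 without it. A second kind of control, bacterial transcripts with a poly(A) tail (dap, lys, phe and thr), which are usually added to the RNA before labelling, moved in another way. All 4 averaged higher in sco3phyb than in phyb, by 0.38 to 0.46 on the log2 scale, and lower in sco3 than in Col-0 (differences of -0.45 to -0.26). They also averaged lower in phyb than in Col-0, at -0.74 for lys, -0.55 for phe, -0.38 for thr and -0.23 for dap. In that comparison only the dap arrays overlapped. In sco3phyb against sco3, dap, phe and thr averaged higher (0.68, 0.29 and 0.26) and lys lower (-0.09). For dap the means were 7.09 in sco3phyb, 6.63 in phyb, 6.41 in sco3 and 6.85 in Col-0. The labels name no batch, and the handling of the arrays that these controls reflect and the phyb mutation cannot be told apart. The comparisons of sco3phyb with phyb and of sco3 with Col-0 lie within the sets that share the bioC to bioB ratio, but the poly(A) controls differ in both, and the interaction is the difference between those 2 comparisons. For the labelling of the RNA the protocol text points to Affymetrix without naming the primer. Of 34 marker genes listed for the tissues of a seedling, the probe annotation named 3, and none of the 9 green-tissue markers, so the labelled tissue could not be checked in that way.

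**Figure D1:**
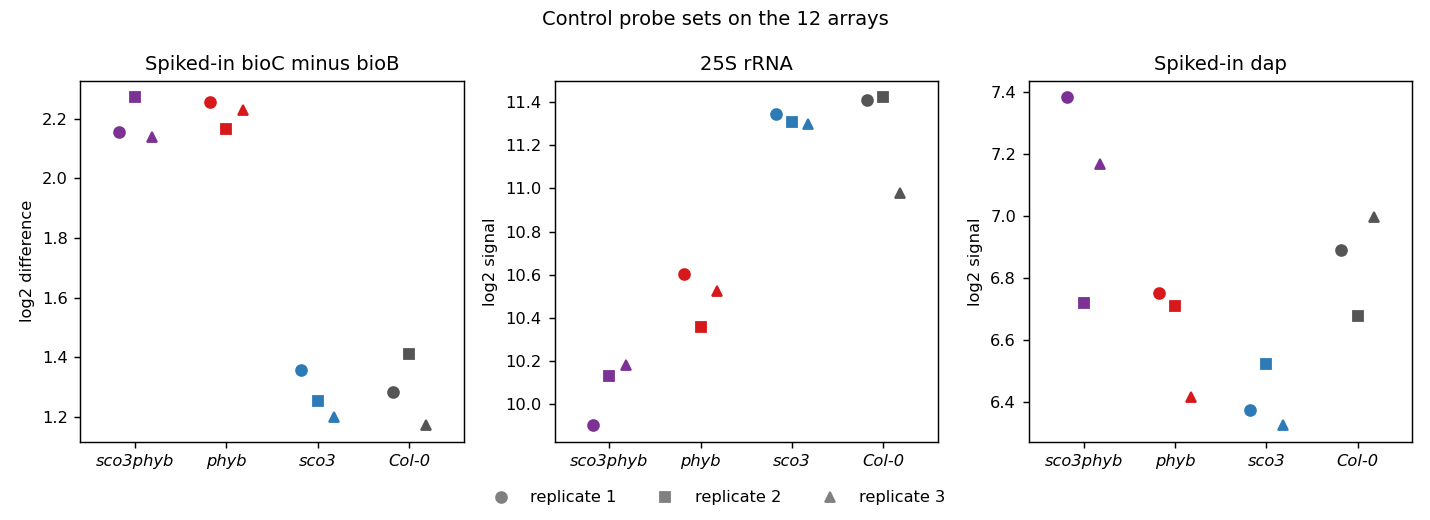
Each point is 1 array, with genotypes on the x axis and symbols for the replicate number. The left panel gives the log2 signal of spiked-in bioC minus that of bioB, the middle panel the log2 signal of 25S rRNA, and the right panel that of the spiked-in poly(A) transcript dap. In the left and middle panels the sco3phyb and phyb arrays lie apart from the sco3 and Col-0 arrays, and in the right panel sco3phyb and Col-0 average highest (7.09 and 6.85).

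Among the Col-0 arrays, replicate 3 was the lowest for all 10 members, at 0.44 below the Col-0 mean on average (log2). Replicate 1 was the highest for 9 of them. The median SD of the members over 3 arrays was 0.20 in sco3phyb, 0.15 in phyb, 0.31 in sco3 and 0.35 in Col-0, while that of all probe sets was 0.12, 0.12, 0.15 and 0.18 in the same order of genotypes. Values without Col-0 replicate 3 are given beside several of the results.

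The comparison of phyb with Col-0 asked how loss of phytochrome B alone changed the members. All 10 had a lower mean in phyb, as did 52 of the other 59 plastid probe sets. By the test 6 members fell: ndhG, ndhE, ndhH, ndhF, ndhA and ndhI. In the same comparison 33.4% of all probe sets passed, 17.6% as higher and 15.9% as lower. Of the other 59 plastid probe sets 38 fell, or 64.4% against 60.0% of the members, so that the share of members called was close to that of plastid genes in general. The members' median difference was -0.55 on the log2 scale, against -0.73 for the other plastid probe sets and -0.06 for all probe sets tested. In whole seedlings, fewer cells with green plastids and less plastid RNA per cell cannot be told apart. The poly(A) controls also averaged lower in phyb than in Col-0, and their part in these values was not tested. Without Col-0 replicate 3 the count was 8, with ndhD and ndhJ added (adjusted p = 0.00415 and 0.0311), and 36.4% of all probe sets passed. The count was 3, leaving ndhG, ndhE and ndhH, when Col-0 replicate 1, Col-0 replicate 2, phyb replicate 2 or phyb replicate 3 was omitted. In those fits 26.2% to 30.2% of all probe sets passed.

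In the stromal arm the members did not move together. ndhH, a subunit near the site where plastoquinone is reduced, gave 3.72, 3.77 and 3.96 on the log2 scale in sco3phyb, 3.73, 3.70 and 3.70 in phyb, 6.49, 5.67 and 5.34 in sco3, and 6.30, 5.95 and 4.59 in Col-0. Every array of the mutants with phyb lay below every array without it, and the spread was wide in sco3 and Col-0 and narrow in the other 2 genotypes. In those 2 the signal lay under the array medians of 4.70 to 4.74. Whether it had reached the background of the probe set was not tested. Relative to Col-0 it fell by 1.91 ± 0.36 in phyb (moderated SE, n = 3 arrays per genotype, adjusted p = 0.00131), which is 3.75-fold lower, and by 1.80 ± 0.36 in sco3phyb (adjusted p = 0.00226). Without Col-0 replicate 3 the fall in phyb was by 2.42. A further stromal subunit, ndhI, carries iron-sulphur clusters. Its signal lay between 12.33 and 12.79 on all 12 arrays, close to the brightest probe set of each array (13.31 to 13.52), where array signals are known to respond less than in proportion. It fell by 0.29 ± 0.09 in phyb (adjusted p = 0.0335) and by 0.29 ± 0.09 in sco3phyb (adjusted p = 0.0342) relative to Col-0. Neither call held after a further quantile normalization (adjusted p = 0.182 in phyb and 0.437 in sco3phyb), and each was lost in 8 of the 19 alternatives.

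Quite another pattern was seen for ndhJ and ndhK, the stromal subunits of the ndhC unit, of which ndhK holds the iron-sulphur cluster next to plastoquinone. For ndhK the log2 signals were 9.07, 8.46 and 9.08 in sco3phyb, 8.51, 7.52 and 7.64 in phyb, 8.15, 7.05 and 7.37 in sco3, and 8.67, 8.44 and 7.98 in Col-0. The sco3phyb arrays lay above all sco3 arrays, and each of the other pairs of genotypes overlapped. ndhJ gave 9.96, 9.51 and 9.95 in sco3phyb, 9.64, 8.92 and 9.10 in phyb, 9.50, 8.68 and 8.88 in sco3, and 10.05, 9.90 and 9.32 in Col-0. Its sco3phyb values again stood above all sco3 values, though the closest arrays, at 9.51 and 9.50, nearly met. Differences from Col-0 in phyb were -0.47 ± 0.31 for ndhK and -0.53 ± 0.25 for ndhJ, neither of them called (adjusted p = 0.276 and 0.126).

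**Figure D2:**
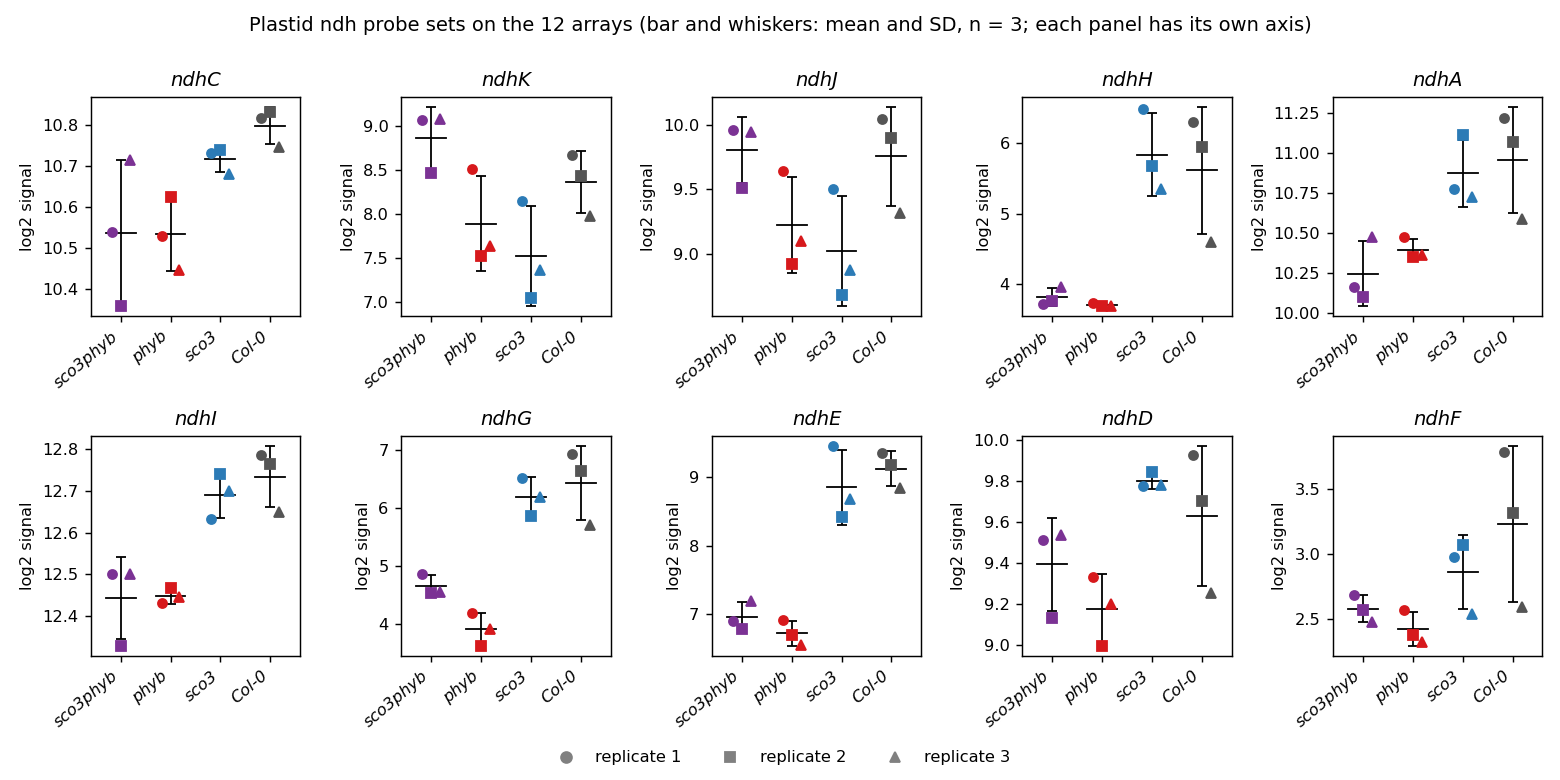
Log2 signal (y axis, a separate range per panel) of the 10 members on the 12 arrays, by genotype on the x axis. Points are arrays with a symbol per replicate number, and bars and whiskers are the mean and SD of 3 arrays. For ndhH, ndhG and ndhE the sco3phyb and phyb arrays form a low group, and for ndhK and ndhJ the sco3 arrays average lowest.

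The largest falls of members in phyb relative to Col-0 were those of ndhG and ndhE in the membrane arm. ndhG, a membrane subunit, gave log2 signals of 4.87, 4.54 and 4.55 in sco3phyb, 4.20, 3.63 and 3.92 in phyb, 6.52, 5.85 and 6.19 in sco3, and 6.93, 6.64 and 5.70 in Col-0. Its neighbour ndhE, a small membrane subunit, gave 6.90, 6.78 and 7.19 in sco3phyb, 6.91, 6.70 and 6.55 in phyb, 9.45, 8.41 and 8.68 in sco3, and 9.34, 9.17 and 8.84 in Col-0. For both genes the arrays with and without the phyb mutation were fully separated, and for ndhG the sco3phyb arrays also lay above all phyb arrays. In phyb the ndhG signals lay under the array medians of 4.73 to 4.74. Whether they had reached the background of the probe set was not tested. Relative to Col-0, ndhG fell by 2.51 ± 0.27 in phyb (5.69-fold lower, adjusted p = 1.88e-05) and by 1.78 ± 0.27 in sco3phyb (3.42-fold lower, adjusted p = 3.49e-04). ndhE fell by 2.40 ± 0.23 in phyb (5.26-fold lower, adjusted p = 7.29e-06) and by 2.16 ± 0.23 in sco3phyb (4.46-fold lower, adjusted p = 2.30e-05). These 4 calls held under every alternative tried.

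ndhA encodes the membrane subunit that joins the arms of the complex. Its log2 signals were 10.16, 10.10 and 10.48 in sco3phyb, 10.47, 10.35 and 10.36 in phyb, 10.77, 11.11 and 10.73 in sco3, and 11.22, 11.07 and 10.59 in Col-0, with no overlap between arrays with and without the phyb mutation. It fell by 0.56 ± 0.17 in phyb (adjusted p = 0.0204) and by 0.71 ± 0.17 in sco3phyb (adjusted p = 0.00608) relative to Col-0. The call in phyb was lost without Col-0 replicate 1 or 2 or phyb replicate 2 or 3, with adjusted p-values of up to 0.0837. ndhD and ndhF, 2 large proton-pumping subunits, are related proteins of the membrane arm. ndhD ranged from 9.13 to 9.53 in sco3phyb, from 8.995 to 9.33 in phyb, from 9.78 to 9.84 in sco3 and from 9.25 to 9.93 in Col-0, and its difference of -0.45 ± 0.17 between phyb and Col-0 was not called (adjusted p = 0.0539). Against sco3, whose 3 arrays were close together, ndhD fell in phyb by 0.62 ± 0.17 (adjusted p = 0.0102).

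ndhF lay near the background of the arrays, with 2.69, 2.57 and 2.48 in sco3phyb, 2.56, 2.38 and 2.32 in phyb, 2.98, 3.07 and 2.54 in sco3, and 3.78, 3.32 and 2.59 in Col-0. All 6 arrays with the phyb mutation lay below the lower quartile of their own array, as did 1 sco3 and 1 Col-0 array, so that its level there is at best an upper bound. It fell by 0.81 ± 0.24 in phyb (adjusted p = 0.0187), a size that the low signal limits. The difference was -0.53 and not called without Col-0 replicate 1 (adjusted p = 0.0735), and -1.13 without Col-0 replicate 3. ndhC, the small membrane subunit that opens the ndhC unit, ranged from 10.36 to 10.71 in sco3phyb, from 10.45 to 10.63 in phyb, from 10.68 to 10.74 in sco3 and from 10.75 to 10.83 in Col-0. Its difference of -0.26 ± 0.11 between phyb and Col-0 was not called (adjusted p = 0.0762), although the 3 arrays of each did not overlap. With each array centred on its median ndhC fell by 0.41 (adjusted p = 0.0109).

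Within the long unit from ndhH to ndhD the sizes changed from gene to gene rather than along the unit. In the order of transcription the differences between phyb and Col-0 on the log2 scale were -1.91 for ndhH, -0.56 for ndhA, -0.29 for ndhI, -2.51 for ndhG, -2.40 for ndhE, -3.74 for psaC and -0.45 for ndhD. psaC, which encodes the iron-sulphur subunit of photosystem I that hands electrons to ferredoxin, gave 4.38, 3.68 and 3.92 in sco3phyb, 4.33, 3.68 and 3.73 in phyb, 7.70, 6.65 and 7.67 in sco3, and 7.41, 7.50 and 8.05 in Col-0. Its fall was thus larger than that of its neighbours on both sides, and Col-0 replicate 3, lowest for every member, was the highest Col-0 array for psaC. The 95% intervals of the difference between phyb and Col-0 were -4.37 to -3.11 for psaC and -0.81 to -0.09 for ndhD, the next gene of the unit. Probe sets differ in how their signal responds to RNA. Bright ones such as that of ndhI may saturate, and dim signals such as those of ndhH, ndhG and psaC in phyb may be held up by background. Neither was tested here, nor was their part in the unequal sizes.

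**Figure D3:**
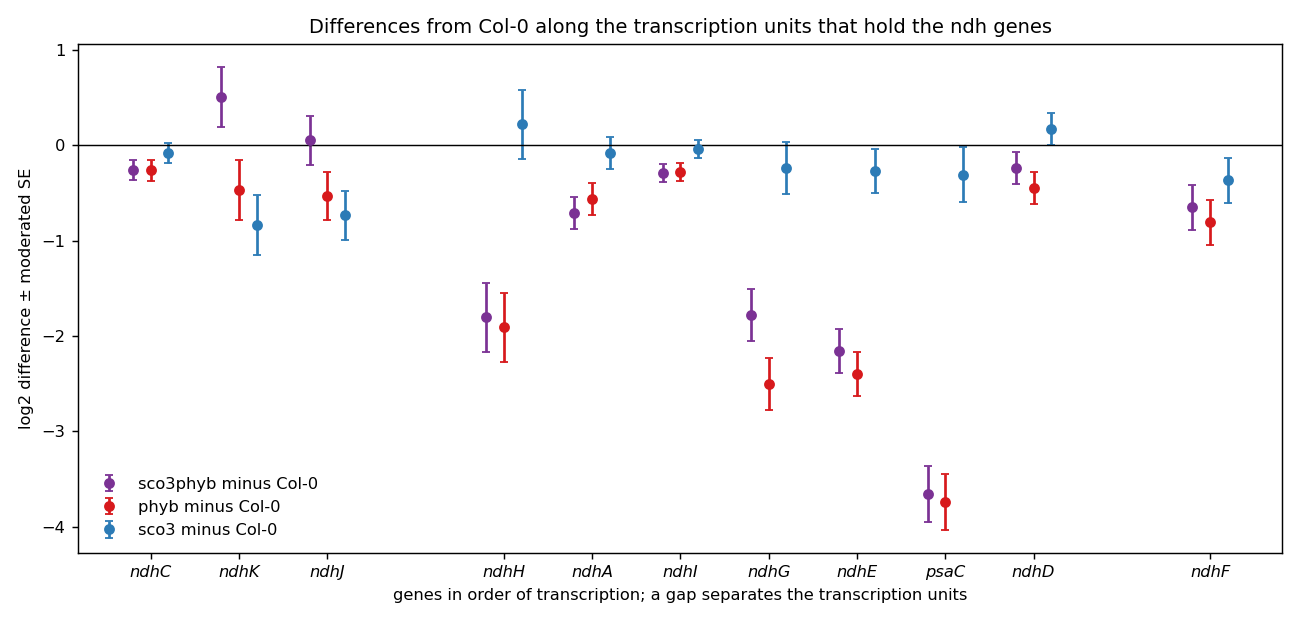
Log2 difference from Col-0 (y axis, with moderated SE, n = 3 arrays per genotype) of sco3phyb, phyb and sco3 for the members and psaC, with genes on the x axis in the order of transcription. The sco3phyb and phyb points are low at ndhH, ndhG, ndhE and psaC and near -0.29 at ndhI, and the sco3 points for all 11 genes lie between -0.84 and 0.22.

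Both mutations together were read from sco3phyb against Col-0. Of the 10 members, 5 fell in sco3phyb (ndhE, ndhH, ndhG, ndhA and ndhI), against a background of 29.7% of probe sets called, 16.8% higher and 12.9% lower. The members' median was -0.47 on the log2 scale, beside -0.59 for the other 59 plastid probe sets, of which 32 fell, and -0.02 for all probe sets. ndhK and ndhJ stood at 0.51 ± 0.31 and 0.05 ± 0.25 above Col-0, without a call. ndhF differed by -0.65 ± 0.24, with an adjusted p of 0.0549. Without Col-0 replicate 3 the count was 7, with ndhF at -0.97 (adjusted p = 0.00106) and ndhD at -0.42 (adjusted p = 0.0432) added. In that fit 30.6% of all probe sets passed. The comparisons of phyb and of sco3phyb with Col-0 share the Col-0 arrays, so that a low or high Col-0 value enters both.

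None of the 10 members passed limma's test between sco3 and Col-0, where 4.97% of all probe sets were called by adjusted p, 2.81% higher and 2.16% lower. Unadjusted, 2 members had a p under 0.05 (ndhJ and ndhK), as did 4 of the other 59 plastid probe sets. The share of all probe sets at that unadjusted threshold is not given here. The members' median was -0.16 and that of all probe sets 0.02. The differences were -0.84 ± 0.31 for ndhK (95% interval -1.52 to -0.16, adjusted p = 0.139) and -0.74 ± 0.25 for ndhJ (-1.28 to -0.19, adjusted p = 0.112). Without Col-0 replicate 3, ndhF alone was called, at -0.69 (adjusted p = 0.0485), where 3.78% of all probe sets passed. ndhH stood at 0.22 ± 0.36 and ndhI at -0.04 ± 0.09. For ndhE and ndhG the intervals were -0.77 to 0.23 and -0.83 to 0.36.

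**Figure D4:**
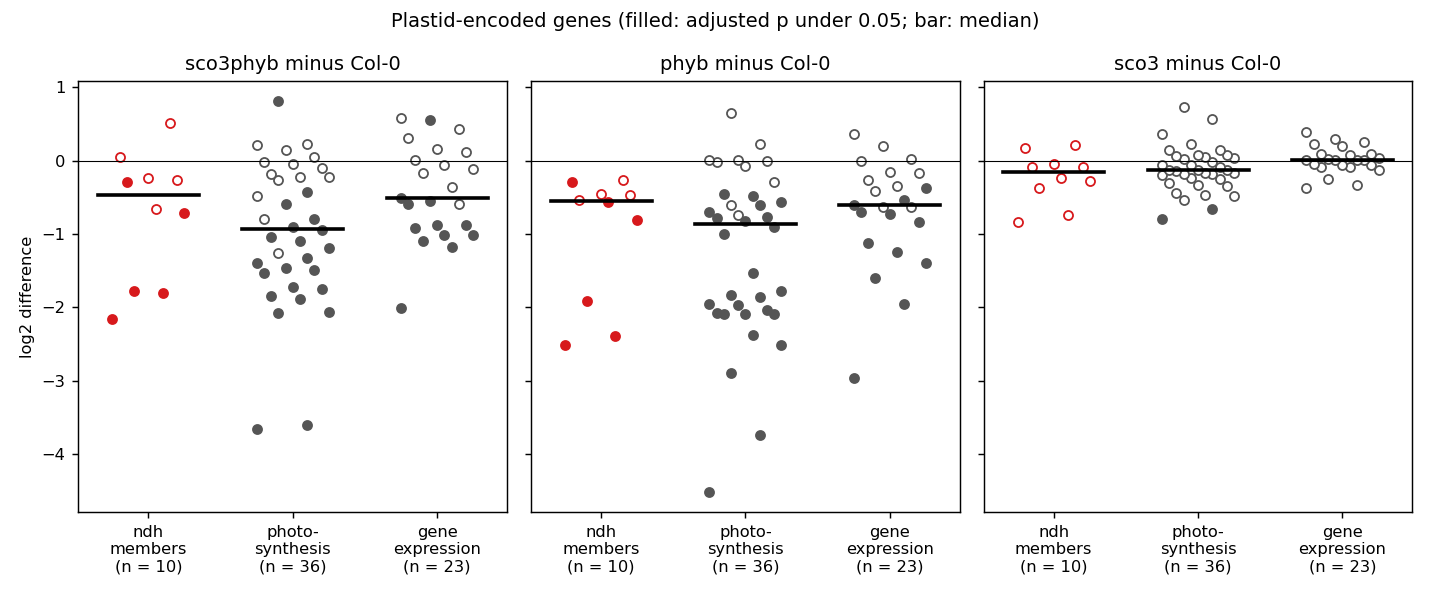
Log2 differences (y axis) from Col-0 in sco3phyb, phyb and sco3 for the 10 ndh members, 36 other plastid genes of photosynthesis and 23 of gene expression and housekeeping. Filled points passed the test, open points did not, and bars are medians. In phyb the medians are -0.55, -0.87 and -0.61.

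Adding sco3 to phyb was read from sco3phyb against phyb, arrays that share their bioC to bioB ratio but differ in the poly(A) controls, all 4 of which averaged higher in sco3phyb (0.38 to 0.46 on the log2 scale). No member passed limma's test, where 14.9% of all probe sets were called by adjusted p, 7.76% higher and 7.18% lower. Unadjusted, 3 members had a p under 0.05 (ndhK, ndhG and ndhJ), as did 24 of the other 59 plastid probe sets. The share of all probe sets at that unadjusted threshold is not given here. The members' median was 0.19, beside 0.32 for the other 59 plastid probe sets and 0.04 for all probe sets. Of the 59, 10 rose and 3 fell. The differences were 0.98 ± 0.31 for ndhK (adjusted p = 0.0539), 0.73 ± 0.27 for ndhG (adjusted p = 0.0945) and 0.58 ± 0.25 for ndhJ (adjusted p = 0.154). ndhC, ndhI and ndhH differed by 0.00 ± 0.11, -0.00 ± 0.09 and 0.11 ± 0.36, with intervals of -0.23 to 0.24, -0.21 to 0.20 and -0.68 to 0.89. Without Col-0 replicate 3, which is not part of the comparison but enters the pooled spread, 2 members rose, ndhK (adjusted p = 0.0329) and ndhG (adjusted p = 0.0122). The share of all probe sets called was then 21.4%.

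Adding phyb to sco3 was read from sco3phyb against sco3. In that comparison 4 members fell and 2 rose, where 29.3% of probe sets passed, 13.4% as lower and 15.9% as higher. Of the other 59 plastid probe sets 32 fell and 2 rose, with a median of -0.60 against -0.34 for the members. ndhH fell by 2.02 ± 0.36, ndhE fell by 1.89 ± 0.23, ndhG fell by 1.54 ± 0.27 and ndhA fell by 0.63 ± 0.17 (adjusted p from 6.66e-05 to 0.0132). The call for ndhA was lost without sco3 replicate 2 or sco3phyb replicate 2. The members that rose were ndhK, by 1.34 ± 0.31 (2.54-fold higher, adjusted p = 0.00603), and ndhJ, by 0.79 ± 0.25 (1.72-fold higher, adjusted p = 0.0333). ndhJ was not called with each array centred on its median (adjusted p = 0.0740), nor without sco3 replicate 2 or 3 or sco3phyb replicate 1 or 3. The call for ndhK held under every alternative tried, with values between 1.11 and 1.66. Between the single mutants, 5 members were lower in phyb than in sco3 (ndhH, ndhG, ndhE, ndhD and ndhA), where 40.2% of probe sets passed, 19.3% as higher and 21% as lower. There 38 of the other 59 plastid probe sets were called lower and 2 higher.

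Whether the phyb difference itself depended on SCO3 was tested as an interaction. ndhK passed, at 1.82 ± 0.44 on the log2 scale (adjusted p = 0.0338), in a test that called 5.03% of all probe sets, 2.65% higher and 2.38% lower. The members' median was 0.30, as was that of the other 59 plastid probe sets, against 0.01 for all probe sets. Of those 59, 46 lay above 0, up to 1.48, and 2 were called higher and 1 lower. For ndhK the difference was 1.34 ± 0.31 between sco3phyb and sco3 and -0.47 ± 0.31 between phyb and Col-0, 2 comparisons that share no array. The call for ndhK was lost in 8 of the 12 fits without 1 array, namely replicates 1 and 2 of Col-0, 2 and 3 of sco3, 2 and 3 of phyb, and 1 and 3 of sco3phyb, with adjusted p-values of up to 0.0923. Its value stayed between 1.58 and 2.13 in all 12, and without Col-0 replicate 3 the interaction was called for 4 members and 6.96% of all probe sets. ndhJ, its neighbour, stood at 1.32 ± 0.36 and missed the threshold (adjusted p = 0.0535). ndhG followed at 0.97 ± 0.39 (adjusted p = 0.184), and the third gene of the unit of ndhK, ndhC, at 0.09 ± 0.15 with a 95% interval of -0.24 to 0.41. The interval for ndhK, 0.86 to 2.77, does not meet that of ndhC. The same difference of differences, taken on the means of the poly(A) controls, was 0.91 for dap, 0.83 for phe, 0.65 for lys and 0.64 for thr. It thus had the sign of the ndhK value in all 4, and dap had the genotype order of ndhK and ndhJ, sco3phyb, Col-0, phyb and sco3. For bioC minus bioB it was -0.01 and for 25S rRNA -0.47. The part of what these controls record in the ndhK and ndhJ values was not tested.

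**Figure D5:**
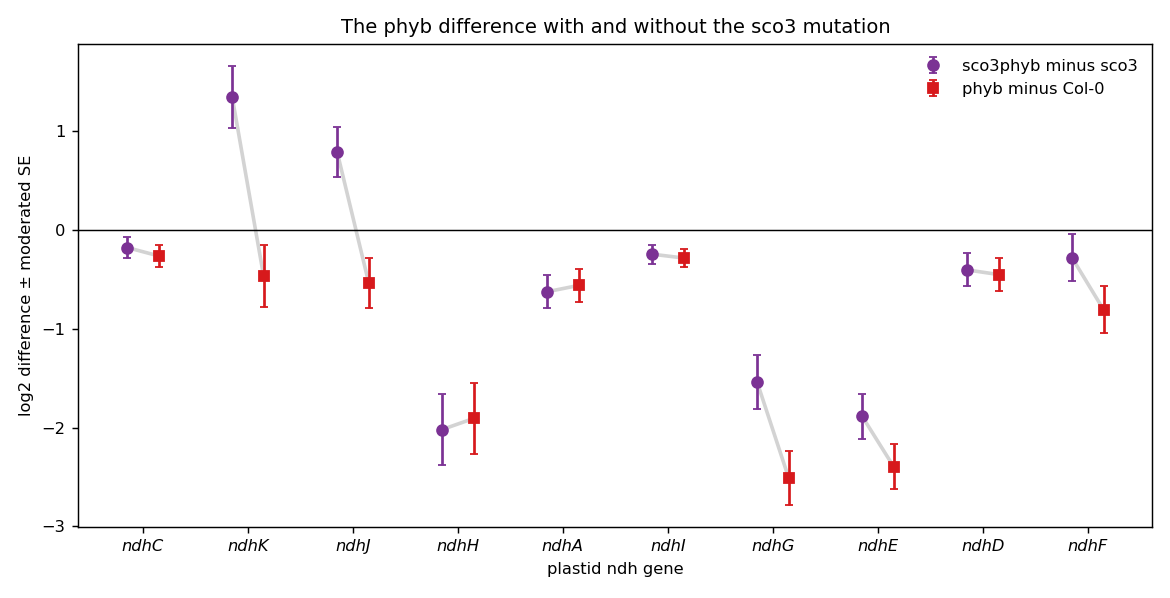
For each member on the x axis, the log2 difference (y axis, with moderated SE) between sco3phyb and sco3 (circles) and between phyb and Col-0 (squares), joined by a grey line. For ndhK the values are 1.34 and -0.47, and for ndhH, ndhA, ndhI, ndhD and ndhC the paired points lie close together.

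The order of the genotypes fell into few steps. For ndhE, ndhG and ndhA, Col-0 was highest and sco3 next, and no difference between them was called (-0.27 for ndhE, the widest). phyb and sco3phyb lay lower and did not differ from each other by the test either, whereas the step from sco3 to the higher of them was called for ndhE, ndhG and ndhA; for ndhA that call (phyb against sco3, adjusted p = 0.0379) was lost in 7 of 19 alternatives. ndhH had the same steps with sco3 highest. For ndhK the order was sco3phyb, Col-0, phyb and sco3, with means of 8.87, 8.36, 7.89 and 7.52, and no neighbours in that order differed by the test. ndhJ had that order too, at 9.80, 9.76, 9.22 and 9.02. The means of ndhD were 9.39 in sco3phyb, 9.18 in phyb, 9.80 in sco3 and 9.63 in Col-0, those of ndhF 2.58, 2.42, 2.86 and 3.23, those of ndhI 12.44, 12.45, 12.69 and 12.73, and those of ndhC 10.54, 10.53, 10.72 and 10.80, in the same order of genotypes. No neighbours by level differed by the test for these genes. For ndhK and ndhJ the ends of the order, sco3phyb and sco3, were the pair that differed.

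Patterns were compared between probe sets by the root mean square difference over the 12 arrays, after centring each probe set on its own mean. ndhJ and ndhK stood at 0.24 and ndhE and ndhG at 0.31, each pair from 1 unit. Pairs from different units lay in the same range, such as ndhD and ndhC (0.23), ndhA and ndhF (0.24) and ndhD and ndhF (0.28). Within 1 unit the values reached 0.98 (ndhE and ndhI), and across units 1.34 (ndhH and ndhK). The closest pair of all members, ndhI and ndhC (0.07), came from different units and had the smallest ranges over the arrays (0.46 and 0.47). Outside the members, the plastid gene psbH, for a small subunit of photosystem II, was nearest to both ndhG (0.15) and ndhE (0.19), and fell by 2.38 in phyb relative to Col-0. The plastid gene atpF, for a subunit of the ATP synthase, was nearest to ndhH (0.21). For ndhI it was the nuclear gene PSB27 (0.06), whose product acts in photosystem II assembly, for ndhA AT1G56720 (0.13) and for ndhF AT4G37080 (0.18). AT3G46630, AT4G37550 and AT2G43760 lay nearest to the average profile of the members (0.14 to 0.16).

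Of 32 listed nuclear genes for NDH subunits and factors, 9 could be named, and of these 4 rose and none fell in phyb relative to Col-0, with a median of 0.34. The other 5 were not called, among them NdhS, NdhL and AT2G04039 at -0.39, -0.33 and -0.05. The count was also 4 in sco3phyb, with a median of 0.49, and in sco3 it was 2, with a median of 0.37, again with none lower. The shares of all probe sets called higher were 17.6%, 16.8% and 2.81% in these comparisons. Without Col-0 replicate 3, which was low for most of these genes, 3 rose and 2 fell in phyb (NdhS at -0.59 and NdhL at -0.56, adjusted p = 0.00139 and 0.00486), and 2 rose in sco3phyb, CRR41 and CRR28. In that fit 36.4% of all probe sets were called in phyb and 30.6% in sco3phyb, in either direction. CRR41 (AT1G51100), a factor in the assembly of the stromal arm, gave 5.53, 5.51 and 5.85 in sco3phyb, 5.36, 5.47 and 5.68 in phyb, 5.92, 5.87 and 5.44 in sco3, and 4.99, 4.83 and 4.73 in Col-0. All 9 mutant arrays thus lay above all Col-0 arrays, and CRR41 rose by 0.78 ± 0.15 in sco3phyb, by 0.65 ± 0.15 in phyb and by 0.89 ± 0.15 in sco3 (adjusted p from 0.00169 to 0.00724). CRR28 (AT1G59720), a PPR protein that edits plastid transcripts, rose by 0.85 ± 0.16, 0.61 ± 0.16 and 0.95 ± 0.16 in the same order (adjusted p from 0.00153 to 0.0104).

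The other nuclear genes changed in fewer comparisons. NdhN (AT5G58260), a stromal subunit, rose by 0.46 ± 0.16 in sco3phyb and by 0.47 ± 0.16 in phyb relative to Col-0 (adjusted p = 0.0455 and 0.0384). CRR42 (AT5G20935), an assembly factor, rose by 0.73 ± 0.23 in phyb (adjusted p = 0.0249), and the PPR protein gene CRR22 (AT1G11290) by 0.65 ± 0.19 in sco3phyb (adjusted p = 0.0180). Col-0 replicate 3 was lowest for CRR42, at 6.38 against 7.51 and 7.36 in the other Col-0 arrays, and for NdhN, at 7.59 against 8.26 and 8.19. Without it, the difference between phyb and Col-0 was 0.38 for CRR42 (adjusted p = 0.0276) and 0.26 for NdhN (adjusted p = 0.110, not called), and in sco3phyb NdhN (0.25) and CRR22 (0.55) were not called either (adjusted p = 0.138 and 0.0523). CRR22 was also not called in sco3phyb without Col-0 replicate 1 (0.53, adjusted p = 0.0717). Its Col-0 signals were low, at 2.98, 3.66 and 3.03, where the lower quartile of these arrays was 2.68 to 2.71. NdhS (AT4G23890), the subunit that binds ferredoxin, rose in sco3phyb relative to phyb by 0.51 ± 0.15 (adjusted p = 0.0430) and fell in phyb relative to sco3 by 0.63 ± 0.15 (adjusted p = 0.00587). Its log2 signals were 9.91, 9.84 and 9.89 in sco3phyb and 9.58, 9.30 and 9.24 in phyb, without overlap. With all arrays, NdhL, CRR21 and AT2G04039 were not called in any comparison, and neither was PGRL1B, the 1 measured gene of the other route of cyclic electron flow.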

How the data were processed

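Transcripts were measured on 12 Affymetrix ATH1 arrays, and the sample titles gave genotype and replicate number. The deposited values are log2 signals per probe set, made by the authors with RMA across all arrays, per the submitters' processing notes, which also name Partek, without versions or settings. They were used without further transformation. Setting aside 64 control probe sets left 22746 for the tests. The probe annotation gave 1 gene to 13513 of them, several to 503 and none to 8730. Gene neighbourhood was read from the RefSeq table of TAIR10.1, in which all 10 members were found. 

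A linear model with a mean per genotype was fitted to all 12 arrays in limma 3.58.1 (R 4.3.3), leaving 8 residual degrees of freedom. Pairwise contrasts of all genotypes and the interaction were tested with lmFit and eBayes (two-sided, Benjamini-Hochberg over all probe sets within a contrast, called at an adjusted p under 0.05), and the pipeline was tested on simulated data. Standard errors are the moderated ones of this fit, pooled over the genotypes. Intervals are 95% intervals of the same fit. The members, the gene lists and the comparisons were chosen with earlier results of these data known. All members were named. Also named were psaC as the other gene of a transcription unit and the nuclear NDH genes with a call in a pairwise contrast. NdhL, CRR21, AT2G04039 and PGRL1B were named too, though none had such a call with all arrays. Named for likeness were the genes with the smallest root mean square difference from a called member or the members' average over the arrays. The fit was repeated with the replicate number as a block, with array weights, with a robust variance trend, on only the genotypes compared, after median centring or another round of quantile normalization, without the 40% of probe sets of lowest mean, and without single arrays; for the nuclear genes, leaving out Col-0 arrays was added after seeing the data. Same-numbered arrays of different genotypes had a median correlation of -0.00813 between their deviations from the genotype means over 18 pairs (-0.274 to 0.150), so the numbers were not taken to pair the samples. Precision is limited by there being 3 arrays a genotype.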

Additional observations from a re-analysis of the deposited data

Results flagged for a closer look

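For ndhK the difference between phyb-mutant and PHYB seedlings was not the same with and without the sco3 mutation, by the test of that difference itself: the interaction was 1.82 ± 0.44 on the log2 scale (moderated SE, n = 3 arrays per genotype, limma adjusted p = 0.0338). The adjusted p ran from 0.00456 to 0.0923 over the alternatives. The median interaction was 0.30 for the 59 plastid probe sets outside the members and 0.01 for all probe sets. The poly(A) controls added to the RNA had the same sign of this difference, at 0.91 for dap, 0.83 for phe, 0.65 for lys and 0.64 for thr, with dap in the genotype order of ndhK; their part in the result was not tested. In its 3 sco3 arrays, and likewise in phyb and Col-0, replicate 1 was the highest for ndhK.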

How the results depend on the processing

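Of 23 called member differences over the 7 contrasts, 15 stayed called under every alternative and none changed direction. The counts of members called that moved by more than 1.5 times were as follows. Between sco3 and Col-0 the count was 0, and it was 1 with array weights and 2 with the replicate block. The shares of all probe sets called were 4.97%, 3.5% and 3.9% in that order. Between sco3phyb and phyb the count was 0, and it was 3 with array weights, 1 without the dimmest 40% of probe sets, 2 with the replicate block and 2 with only those genotypes fitted. Of all probe sets tested, 14.9% were called in the main fit, and 28.6%, 25.2%, 14.1% and 22.1% in these settings. For the interaction the count was 1, and it was 3, 2 and 2 with array weights, without the dimmest probe sets and with the replicate block. The shares of probe sets called were 5.03%, and 8.6%, 9.18% and 4.57%. Between phyb and sco3 the count was 5, and 8 after median centring, where 40.2% and 55.7% of all probe sets were called. With 1 array left out, the counts ran from 0 to 1 (sco3 against Col-0), 3 to 8 (phyb against Col-0), 4 to 7 (sco3phyb against Col-0), 0 to 2 (sco3phyb against phyb), 4 to 7 (sco3phyb against sco3), 4 to 7 (phyb against sco3) and 0 to 4 (interaction), where the highest came without Col-0 replicate 3. Without that array the shares of all probe sets called were 3.78%, 36.4%, 30.6%, 21.4%, 35.3%, 46.2% and 6.96%, in the same order. In the fits with the lowest counts, the first 4 shares were 1.74% to 6.43%, 26.2% to 30.2%, 24% to 27.9% and 9.75% to 15.2%. For sco3phyb against sco3, phyb against sco3 and the interaction they were 24.6%, 31.5% to 35.4% and 2.91% to 5.22%. The replicate numbers were not taken to pair the samples. Of 12 arrays, 6 correlated best with an array of their own number, which alone does not decide the matter. Over the members, replicate 1 averaged above its genotype mean in every genotype (by 0.06 in sco3phyb, 0.19 in phyb, 0.27 in sco3 and 0.32 in Col-0). Replicates 2 and 3 did not keep 1 sign. With the block 32.6% and 28.7% of all probe sets were called for phyb and sco3phyb against Col-0. The member counts were then 6 and 5, as without the block, though not for the same members. ndhI left both, ndhJ entered in phyb (adjusted p = 0.0432) and ndhF in sco3phyb (adjusted p = 0.0178). For the interaction ndhJ was added to ndhK (adjusted p = 0.0164). The 2 called between sco3 and Col-0 with the block were ndhK and ndhJ, both lower (adjusted p = 0.047 and 0.0495).

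Values that changed sign were not called in either setting. With array weights these were ndhH in sco3 against Col-0 (-0.20), ndhJ in sco3phyb against Col-0 (-0.11), and the interactions of ndhA (0.072) and ndhH (0.35). With each array centred on its median they were ndhI in sco3 against Col-0 (0.00311), ndhJ in sco3phyb against Col-0 (-0.078) and ndhI in sco3phyb against phyb (0.013), and after quantile normalization ndhI (0.068) and ndhC (-0.00952) in sco3phyb against phyb. With 1 array left out, the ranges that crossed 0 were, in sco3 against Col-0, -0.27 to 0.044 for ndhA, -0.016 to 0.32 for ndhD, -0.60 to 0.018 for ndhG and -0.29 to 0.56 for ndhH. In sco3phyb against phyb they were -0.085 to 0.093 for ndhC and -0.033 to 0.052 for ndhI, in sco3phyb against Col-0 -0.17 to 0.20 for ndhJ, and in phyb against sco3 -0.00773 to 0.44 for ndhJ. For the interaction they were -0.19 to 0.12 for ndhA, -0.00315 to 0.17 for ndhC, -0.10 to 0.23 for ndhD and -0.46 to 0.40 for ndhH. For the nuclear genes, leaving out single Col-0 arrays gave ranges across 0 of -0.050 to 0.52 for CRR42 and -0.15 to 0.20 for NdhL in sco3, -0.14 to 0.64 for CRR21 and -0.31 to 0.096 for AT2G04039 in phyb, and -0.087 to 0.23 for NdhS and -0.13 to 0.28 for AT2G04039 in sco3phyb, each low end without replicate 3. The cause was not tested. Signal over background limits ndhF, which was left out with the dimmest probe sets.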

Other observations

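Other control and marker values were as follows. Of the spiked-in poly(A) transcripts other than dap, phe averaged 5.07 ± 0.24 in sco3phyb, 4.62 ± 0.21 in phyb, 4.79 ± 0.12 in sco3 and 5.17 ± 0.05 in Col-0, and thr averaged 5.03 ± 0.23, 4.65 ± 0.14, 4.77 ± 0.15 and 5.03 ± 0.16 in the same order of genotypes. The lys transcript averaged 4.29 ± 0.17 in sco3phyb, 3.90 ± 0.19 in phyb, 4.38 ± 0.08 in sco3 and 4.65 ± 0.17 in Col-0 (log2 signal, SD, n = 3). The 3′ probe set of GAPDH stood above its 5′ probe set by 0.80 ± 0.03 in sco3phyb, 0.51 ± 0.08 in phyb, 0.96 ± 0.24 in sco3 and 0.71 ± 0.06 in Col-0. The guard cell gene FMA averaged 4.16 in sco3phyb, 3.77 in phyb, 4.39 in sco3 and 4.66 in Col-0. The root hair genes EXPA7 and EXPA18 averaged 5.47 and 6.37 in sco3phyb, 6.69 and 7.33 in phyb, 5.06 and 5.66 in sco3, and 6.35 and 6.68 in Col-0.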
